A study of Mus musculus with 5 samples.

Results

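Collagens are the main structural proteins of the extracellular matrix. Each molecule is a triple helix of 3 chains, which may be copies of 1 gene product or the products of different genes. Inside the cell, prolyl and lysyl hydroxylases modify the chains and the chaperone HSP47 escorts the folded helix, and outside the cell proteinases trim the procollagen and lysyl oxidases cross-link it. In the mammary gland, basement membrane collagens lie under the epithelium and fibrillar collagens fill the stroma, where fibroblasts are the best known source.

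The genes described here are the collagen chains and the enzymes and helpers that make, fold, trim and cross-link them. They were chosen by name: every protein-coding collagen chain gene apart from Col17a1, the lysyl oxidase, lysyl hydroxylase, prolyl 4-hydroxylase and prolyl 3-hydroxylase families, and P4hb, Serpinh1, Bmp1, Colgalt1, Crtap, Ppib and Pcolce. The mouse annotation holds 65 such genes. Of these, 39 were among the 12934 genes listed in the count table and 38 of 12483 were tested. The tested genes were 21 collagen chains and 17 enzymes and helpers.

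EpH4 is an immortalized mouse mammary epithelial cell line. All cells carried Cas9, introduced by lentivirus with blasticidin selection, and received either a control sgRNA (sgControl, 3 libraries) or an sgRNA against Mef2d (sgMef2d, 2 libraries) by lentivirus with puromycin selection. Mef2d encodes a transcription factor of the MEF2 family. The comparison addresses which expression changes follow when Mef2d is targeted. The study used different sgRNAs against Mef2d, and the labels do not say which of them each sgMef2d library carried. The labels also do not say whether the libraries came from separate cultures or separate selections, so p-values measure the spread between these libraries, which may be technical. The methods speak of stable clones selected with the drugs and give no number of clones.

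Total counts ranged from 13601145 to 20498563 per library, and 3 counts corresponded to 0.146 to 0.221 counts per 1000000 (CPM). Intervals and limits here cover counting error and the spread between libraries as fitted. sgControl replicate 1 stood apart from its group. The chi-square per degree of freedom over genes was 10.3 and 13.3 between it and the other sgControl libraries, against 1.98 between sgControl replicates 2 and 3 and 2.02 between the sgMef2d libraries. Between sgControl and sgMef2d libraries it was 10.6 to 12.7, so this library differed from its own group by about as much as the groups differed. The calls on the collagen genes are therefore given with and without it. The Mef2d transcript itself stood at 64.3 to 76.9 CPM in the sgControl libraries and at 64.2 and 65.8 CPM in the sgMef2d libraries. Its log2 fold change was -0.12 with a standard error (SE) of 0.080 (adjusted p = 0.400), and -0.19 (adjusted p = 0.00550) if sgControl replicate 1 was left out. Without sgControl replicate 2 it was -0.060 (adjusted p = 0.770). A Cas9 cut can leave a transcript in place, so the RNA level is no check of the editing. For targeted EpH4 cells, the paper reports loss of MEF2D protein by immunoblot.

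Of the 38 genes tested, 6 were higher and 3 were lower in sgMef2d at an adjusted p below 0.05 (edgeR's quasi-likelihood test, Benjamini-Hochberg over all genes tested). The higher genes were the collagen chains Col3a1, Col5a3 and Col6a3, the lysyl oxidase family members Loxl1 and Loxl3, and Pcolce, an enhancer of procollagen trimming. The lower genes were the chains Col1a2, Col4a5 and Col8a1. Among all 12483 genes tested, 992 passed the same threshold, which is 7.95%, with 458 higher (3.67%) and 534 lower (4.28%). The sgControl and sgMef2d libraries did not overlap in 24 of the 38 genes and in 41.1% of all genes tested. An unadjusted p below 0.05 was reached by 19 of the 38 genes and by 2901 of all genes. In bulk RNA, more cells of a type and more RNA per cell cannot be told apart.

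The estimates were larger in size for the chains than for the enzymes and helpers, and calls among the chains went in both directions. Of the 21 chains, 3 were higher and 3 lower, with a median absolute log2 fold change of 0.40, while of the 17 enzymes and helpers 3 were higher and none lower, with a median of 0.12. The median over all genes tested was 0.12. The chains were lower in counts than the enzymes: 10 of 21 chains and 15 of 17 enzymes and helpers had a mean of at least 10 CPM over the libraries. At that level the median absolute log2 fold change was 0.38 for the chains and 0.10 for the enzymes and helpers. It was 0.099 over all 8950 genes at that level. Past the threshold were 5 of these chains (50%), 2 of these enzymes and helpers (13.3%) and 8.06% of these 8950 genes. The part of the count level in this difference was not tested, and neither was the difference between the lists.

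**Figure D1:**
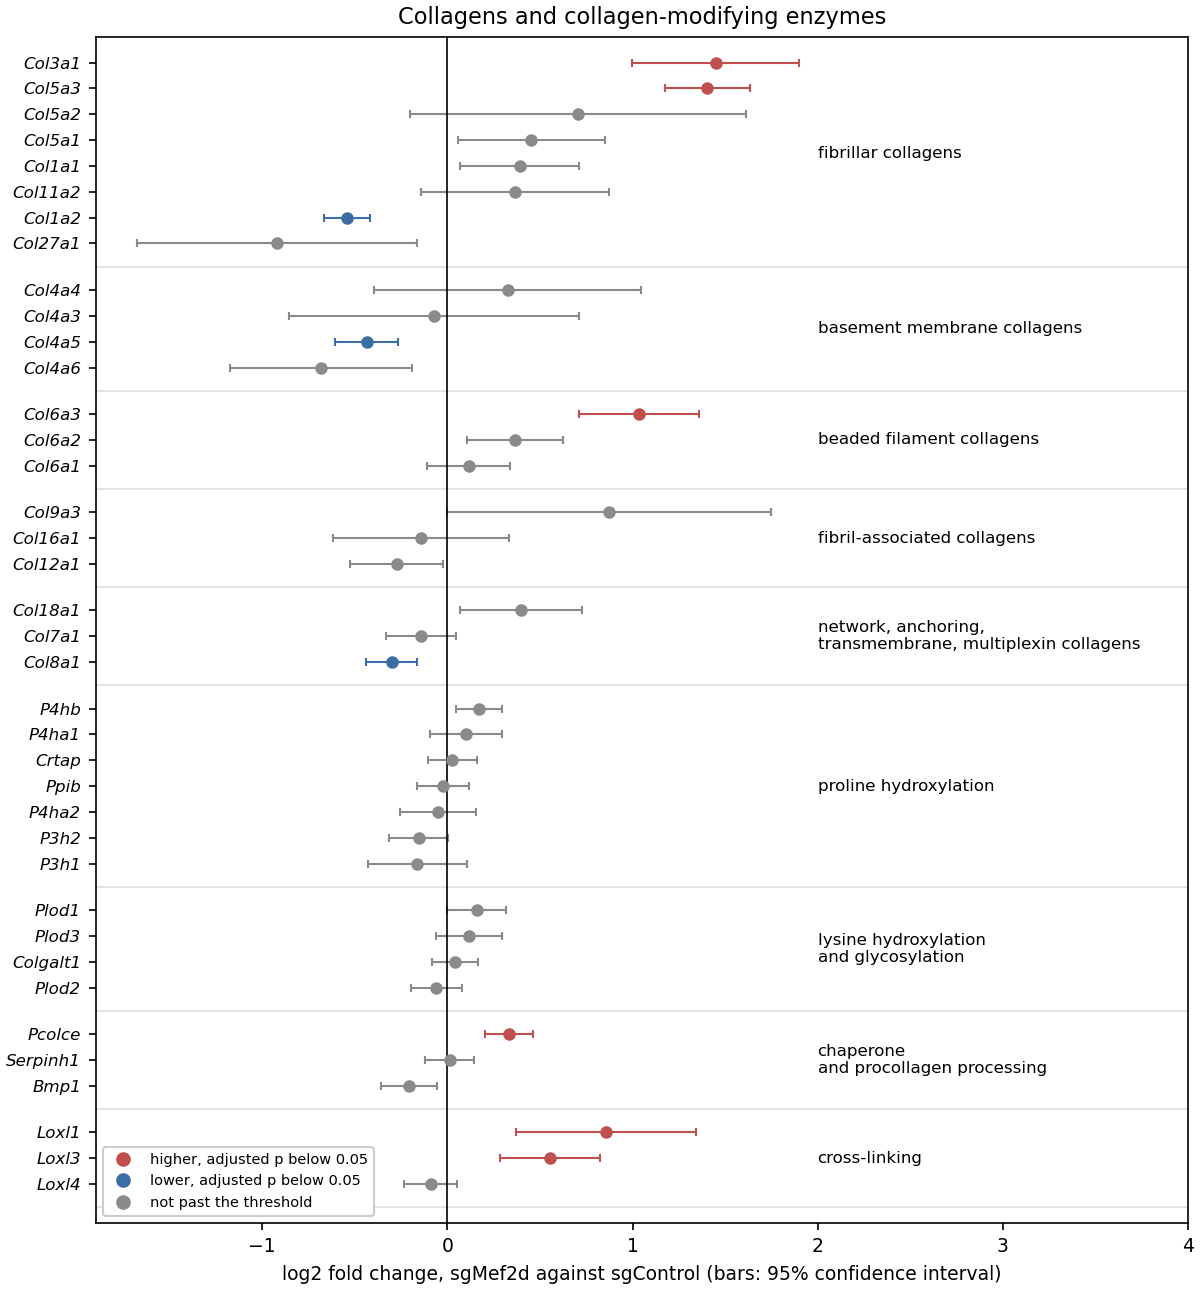
The x axis is the log2 fold change of sgMef2d against sgControl and each row is 1 of the 38 genes tested, grouped by role, with bars for the 95% confidence interval. Of the 9 coloured genes, 6 are higher and 3 lower, and all 11 genes for proline and lysine modification sit between -0.16 and 0.17.

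The fibrillar collagens form the cross-striated fibres of connective tissue, and 8 of 11 were tested. Col3a1 (ENSMUSG00000026043.18, GRCm38 chr1:45311538-45349706, plus strand) encodes the chain of type III collagen, which is a homotrimer. In order of replicate number, its level was 1.80, 1.63 and 2.13 CPM in sgControl against 5.36 and 4.71 CPM in sgMef2d, and values of each library follow this order throughout. Every sgMef2d library was above every sgControl library, at 1.85 ± 0.251 CPM (SD, n = 3) against 5.04 ± 0.454 CPM (SD, n = 2). The log2 fold change was 1.45 (SE 0.20, adjusted p = 0.00142). Col3a1 remained a low transcript in both groups.

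Col5a3 (ENSMUSG00000004098.7, chr9:20770050-20815067, minus strand) encodes the α3 chain of type V collagen, a minor fibrillar collagen that helps to start fibrils. It was measured at 7.41, 7.59 and 7.92 CPM in sgControl and at 20.4 and 19.9 CPM in sgMef2d. The libraries within each group lay close together and the groups did not overlap. The log2 fold change was 1.41 (SE 0.11, adjusted p = 1.78e-05), the smallest p among the 38 genes. The other type V chains did not pass the threshold. Col5a1 was at 3.90, 3.62 and 3.01 CPM in sgControl and 4.77 and 4.98 CPM in sgMef2d (log2 fold change 0.45, adjusted p = 0.159). Col5a2 was at 0.733 to 1.56 CPM in sgControl and at 2.12 and 1.08 CPM in sgMef2d, so its groups overlapped (0.71, adjusted p = 0.340). Its estimate ranged from 0.11 to 1.09 when 1 library was left out.

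Type I collagen, the most abundant collagen of most connective tissues, is built from α1 chains (Col1a1) and an α2 chain (Col1a2). Col1a2 (ENSMUSG00000029661.16, chr6:4504814-4541544, plus strand) was at 413, 422 and 438 CPM in sgControl and at 287 and 296 CPM in sgMef2d. The sgMef2d libraries were all below the sgControl libraries. The log2 fold change was -0.54 (SE 0.057, adjusted p = 0.000232). Col1a1, its partner, was at 125, 179 and 199 CPM in sgControl and at 204 and 235 CPM in sgMef2d. The groups did not overlap but sgControl replicate 1 was far below the other sgControl libraries, and the log2 fold change of 0.39 (95% interval 0.069 to 0.71) had an adjusted p of 0.135. Leaving that library out gave 0.21 (adjusted p = 6.82e-05), and leaving out sgControl replicate 3 gave 0.53 (adjusted p = 0.0245). With all libraries and each library's dependence on length and GC content removed, it was 0.38 (adjusted p = 0.0259). The 2 chain genes of 1 heterotrimer therefore had estimates of opposite sign, and whether Col1a1 passed the threshold depended on the fit.

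Of the remaining fibrillar chains, Col27a1 had the estimate farthest from 0 at -0.92 (adjusted p = 0.135), which was -0.53 (adjusted p = 0.297) without sgControl replicate 1, and Col11a2 was at 0.36 (adjusted p = 0.386). Neither exceeded 3.12 CPM in any library. Col2a1, Col11a1 and Col24a1 were not listed in the table used here.

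The beaded filament collagen, type VI, is assembled from α1, α2 and α3 chains and forms microfibrils around cells. Col6a3 (ENSMUSG00000048126.16, chr1:90765923-90843971, minus strand) was at 69.8, 101 and 115 CPM in sgControl and at 198 and 191 CPM in sgMef2d. The sgControl libraries spread widely, with replicate 1 lowest, and both sgMef2d libraries lay above them. The mean was 95.4 ± 23.1 CPM (SD, n = 3) against 195 ± 4.72 CPM (SD, n = 2), and the log2 fold change was 1.04 (SE 0.15, adjusted p = 0.00147). With sgControl replicate 1 left out, it was 0.85 (adjusted p = 1.66e-31).

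The partner chains of Col6a3 did not pass the threshold. Col6a1 was at 157, 199 and 209 CPM in sgControl and at 197 and 211 CPM in sgMef2d, with overlapping groups (log2 fold change 0.11, 95% interval -0.11 to 0.34, adjusted p = 0.551). Its sign turned to -0.0038 without sgControl replicate 1. Col6a2 was at 45.7, 59.1 and 63.1 CPM in sgControl and at 66.4 and 77.2 CPM in sgMef2d (0.37, adjusted p = 0.0904). The groups did not overlap for Col6a2. It passed without sgControl replicate 1, at 0.23 (adjusted p = 0.00164), without sgControl replicate 3, at 0.46 (adjusted p = 0.0293), and with the length and GC dependence removed, at 0.38 (adjusted p = 0.00729). Col6a4, Col6a5 and Col6a6, the later members of the family, were not listed in the table used here.

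The 4 chains that passed the threshold under every alternative setting were Col3a1, Col5a3, Col6a3 and Col1a2. The sequences upstream of their starts are shown because these calls did not depend on the setting and because a promoter is a place where transcription factors bind. Each stretch of 120 bases ends just before the first base that RefSeq or the GENCODE basic set counts as transcribed, is written 5′ to 3′ along the strand of the gene, and comes from the RefSeq promoter windows of GRCm38.p6. Capitals mark the letters of a GC box (GGGCGG) or a TATA box (TATAAA) on either strand, wherever they lie. Those of Col3a1 lie at the end of its stretch that is farthest from the start. The stretches lie at chr6:4505373-4505492 (plus strand) for Col1a2, chr1:45311418-45311537 (plus strand) for Col3a1, chr9:20815068-20815187 (minus strand) for Col5a3 and chr1:90843972-90844091 (minus strand) for Col6a3. No annotated exon overlaps them, and that of Col1a2 lies in an intron of a longer partial transcript.
Col1a2: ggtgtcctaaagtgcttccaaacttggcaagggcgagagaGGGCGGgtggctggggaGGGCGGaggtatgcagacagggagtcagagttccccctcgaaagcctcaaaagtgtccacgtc
Col3a1: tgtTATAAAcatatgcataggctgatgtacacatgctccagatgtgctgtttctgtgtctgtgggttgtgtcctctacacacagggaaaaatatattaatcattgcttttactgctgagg
Col5a3: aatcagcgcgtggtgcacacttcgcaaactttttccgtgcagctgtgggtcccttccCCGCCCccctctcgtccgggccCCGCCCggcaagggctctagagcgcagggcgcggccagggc
Col6a3: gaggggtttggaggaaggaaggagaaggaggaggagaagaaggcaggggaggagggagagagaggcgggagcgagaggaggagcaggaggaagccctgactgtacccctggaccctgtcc

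The stretches differ in base composition. Their GC content was 40.0% for Col3a1 and 60.0%, 70% and 63.3% for Col1a2, Col5a3 and Col6a3. Whole windows, from 250 bases before to 50 bases after the RefSeq start, were matched by symbol for 29 of the 39 listed genes (33 windows). The letters of the GC box were in 26 of these 33 windows (78.8%), against 35.7% of all 32851 windows and 46.2% of the 21263 windows of protein-coding genes. The CCAAT box (CCAAT) was in 33.3% of the collagen-related windows, 37.4% of all windows and 38.2% of windows of protein-coding genes. For the TATA box these shares were 15.2%, 13.6% and 12.6%. The AP-1 site (TGANTCA) was in 1 window, that of Col6a1, which is 3.03% against 7.81% and 6.99%. The MEF2 site, searched by its usual consensus on both strands, was in 0 of the 33 windows. It was in 3.19% of all windows and 2.74% of those of protein-coding genes, so few matches in 33 windows would be expected. Matches of these motifs may overlap each other. A match says only that these letters are in a window, and a missing match only that they are not.

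The basement membrane collagens of type IV form the sheet under epithelia, and 4 of 6 chains were tested. Col4a5 (ENSMUSG00000031274.16, chrX:141475385-141689234, plus strand) was the only 1 of the 4 past the threshold. It was at 121, 140 and 143 CPM in sgControl and at 101 and 97.6 CPM in sgMef2d. Both sgMef2d libraries were below all sgControl libraries, and the log2 fold change was -0.44 (SE 0.077, adjusted p = 0.00558). Col4a6, which starts 1309 bases from Col4a5 on the opposite strand, was at 5.51, 8.79 and 5.86 CPM in sgControl and at 3.83 and 4.44 CPM in sgMef2d. Its log2 fold change was -0.68 (adjusted p = 0.0926), and -0.84 (adjusted p = 0.000471) without sgControl replicate 1.

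Col4a3 and Col4a4 start 72 bases apart on opposite strands of chromosome 1, and in the kidney their products join that of Col4a5 in a single heterotrimer. Both had few counts here, 12 to 27 per library for Col4a3 and 13 to 39 for Col4a4. Col4a3 was at 0.880 to 1.42 CPM in sgControl and at 1.41 and 0.875 CPM in sgMef2d (log2 fold change -0.073, adjusted p = 0.929). Col4a4 was at 0.922 to 2.05 CPM in sgControl and at 1.77 and 2.42 CPM in sgMef2d (0.33, adjusted p = 0.607). The groups overlapped for both, and their intervals, -0.85 to 0.71 and -0.40 to 1.05, are too wide to tell a change from none. Col4a1 and Col4a2, the chains of the common type IV heterotrimer, were not listed in the table used here.

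Col8a1 (ENSMUSG00000068196.5, chr16:57624258-57754737, minus strand) encodes a short-chain collagen that forms hexagonal networks. It was at 270, 295 and 299 CPM in sgControl and at 238 and 229 CPM in sgMef2d. The groups did not overlap, and the log2 fold change was -0.30 (SE 0.063, adjusted p = 0.0141). Col7a1, the anchoring fibril collagen, and Col18a1, the basement membrane multiplexin that gives rise to endostatin, did not pass the threshold (-0.14 and 0.40, adjusted p = 0.361 and 0.136). Among the fibril-associated collagens, Col12a1 was at 106, 141 and 148 CPM in sgControl and at 109 and 108 CPM in sgMef2d (-0.27, adjusted p = 0.179). Its sgControl replicate 1 lay below the sgMef2d libraries while the other sgControl libraries lay above them, and the fit without that library gave -0.41 (adjusted p = 1.59e-12). Col16a1 and Col9a3 were at -0.14 and 0.87 (adjusted p = 0.750 and 0.215), and without the same library Col9a3 was at 1.23 (adjusted p = 0.0178). Col20a1 had 5 to 12 counts per library and was not tested. Of the same classes, Col8a2, Col9a1, Col9a2, Col10a1, Col13a1, Col14a1, Col15a1, Col19a1, Col22a1, Col23a1, Col25a1, Col26a1 and Col28a1 were not listed in the table used here.

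**Figure D2:**
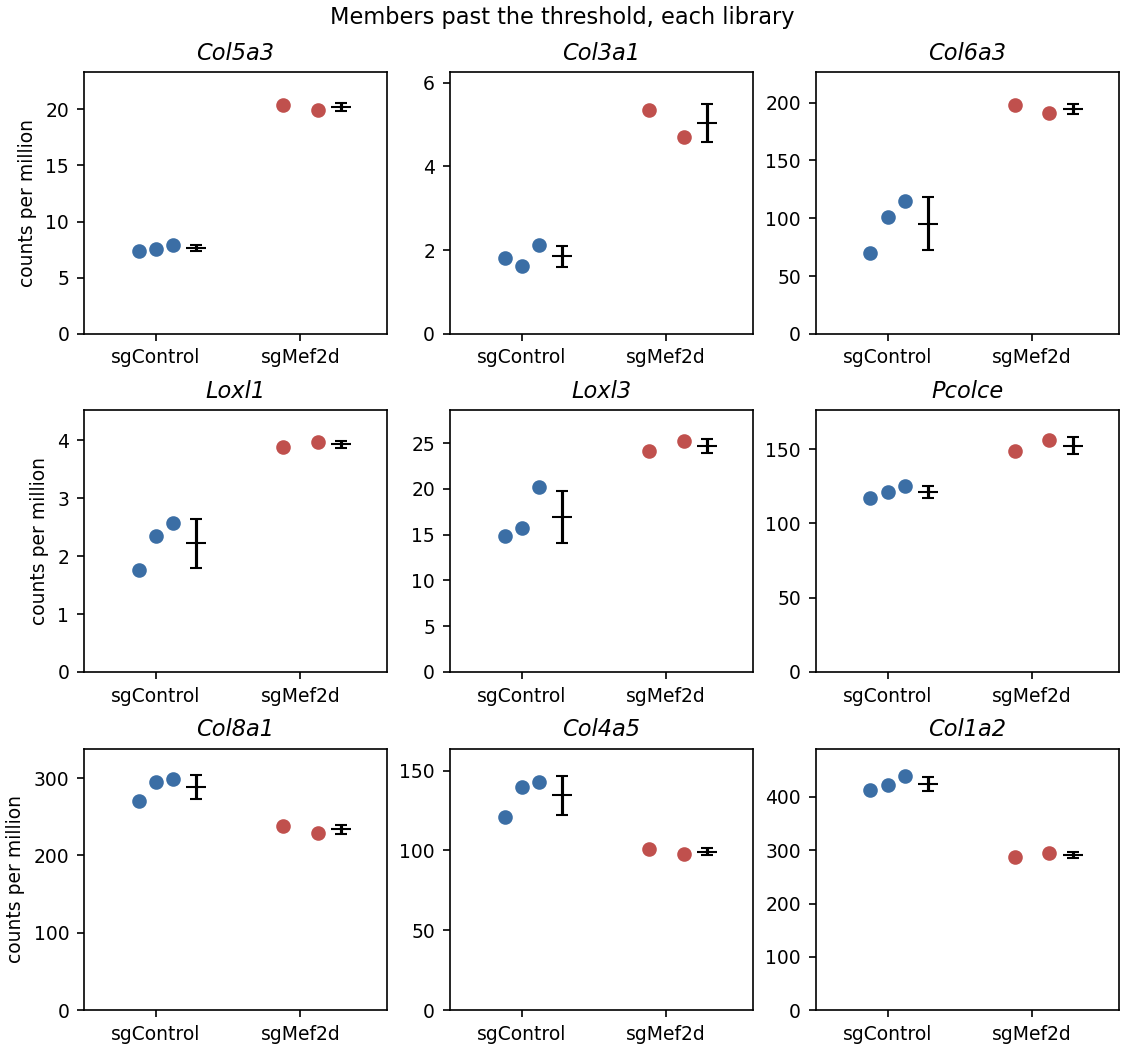
Each panel shows 1 of the 9 genes past the threshold, with CPM on a y axis that starts at 0, a point for each library and a black bar for the mean and SD of its group. In each panel the 2 sgMef2d libraries lie on 1 side of the 3 sgControl libraries, and Col6a3 has the wide sgControl spread of 69.8 to 115 CPM.

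The genes for proline hydroxylation, which makes the triple helix stable at body temperature, gave no call in 7 tested. P4hb, the β subunit of prolyl 4-hydroxylase and a protein disulfide isomerase, had the smallest p. It was at 461, 489 and 489 CPM in sgControl and at 542 and 537 CPM in sgMef2d, with a log2 fold change of 0.17 (SE 0.057, adjusted p = 0.0965). Its groups did not overlap. The catalytic α subunits P4ha1 and P4ha2 were at 0.10 and -0.051 (adjusted p = 0.551 and 0.796), with overlapping groups, and P4ha1 was at 0.0070 without sgControl replicate 1. Ppib, P3h1, P3h2 and Crtap, which act in proline 3-hydroxylation or the folding that goes with it, lay between -0.16 and 0.025. P4ha3, P3h3 and P3h4 were not listed in the table used here.

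Lysine hydroxylation and the sugars attached to hydroxylysine gave no call in 4 tested genes. Plod1, a lysyl hydroxylase, had the smallest p, at 43.6, 48.2 and 46.1 CPM in sgControl and 49.96 and 52.5 CPM in sgMef2d (0.16, adjusted p = 0.219). Colgalt1, which adds galactose, was at 134, 135 and 134 CPM in sgControl and at 140 and 137 CPM in sgMef2d (0.041, 95% interval -0.082 to 0.16, adjusted p = 0.716). The sgControl libraries lay close together. Plod2 and Plod3 were at -0.061 and 0.12, and at -0.086 and 0.049 without sgControl replicate 1.

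Serpinh1, the gene for the collagen chaperone HSP47, was at 492, 450 and 454 CPM in sgControl and at 461 and 478 CPM in sgMef2d. The groups overlapped, and the log2 fold change was 0.011 (95% interval -0.12 to 0.15, adjusted p = 0.936), an interval that leaves out changes of the size seen in Col1a2 or Col6a3. Bmp1, the proteinase that removes the C-terminal propeptide of fibrillar procollagens and activates lysyl oxidase, was at 117, 131 and 128 CPM in sgControl and 105 and 113 CPM in sgMef2d (-0.21, adjusted p = 0.0980). Pcolce (ENSMUSG00000029718.14, chr5:137605103-137613784, minus strand) encodes the enhancer protein that speeds this cleavage. It was at 117, 121 and 125 CPM in sgControl and at 148 and 156 CPM in sgMef2d. The sgMef2d libraries were above all sgControl libraries, at a log2 fold change of 0.33 (SE 0.060, adjusted p = 0.00601). Exons of Pcolce share 112 bases with Fbxo24 on the same strand.

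The lysyl oxidases start the covalent cross-links between collagen molecules, and 3 of 5 were tested. Loxl1 (ENSMUSG00000032334.10, chr9:58287738-58313186, minus strand), known for its role in elastic fibres, was at 1.76, 2.34 and 2.57 CPM in sgControl and at 3.88 and 3.97 CPM in sgMef2d. Its log2 fold change was 0.86 (SE 0.22, adjusted p = 0.0369), and this call was lost in 5 of the 16 alternatives described below. Loxl3 (ENSMUSG00000000693.10, chr6:83034173-83052562, plus strand) was at 14.9, 15.7 and 20.2 CPM in sgControl and at 24.1 and 25.2 CPM in sgMef2d (0.55, SE 0.12, adjusted p = 0.0195). Both genes had sgMef2d libraries above all sgControl libraries. Loxl3 shares 535 exonic bases with Htra2 on the opposite strand. The libraries were strand-marked, but the strand setting of the counting is not given in the sources used here, so reads of the pair may have been mixed. Loxl4, the highest per kilobase of the 3 tested, was at 96.2, 107 and 102 CPM in sgControl and at 95.8 and 95.5 CPM in sgMef2d (-0.090, 95% interval -0.23 to 0.053, adjusted p = 0.449). Lox and Loxl2 were not listed in the table used here.

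Chains that are built into 1 molecule were set against each other within each library, per kilobase of exon. The Col1a1 to Col1a2 ratio was 0.574, 0.803 and 0.859 in sgControl and 1.34 and 1.503 in sgMef2d. Its mean was 0.745 ± 0.151 (SD, n = 3) against 1.42 ± 0.113 (SD, n = 2), 1.91 times as high in sgMef2d. The exon length includes long isoforms with retained introns for Col1a2, and per kilobase of the longest coding transcript the means were 0.355 and 0.678. In sgControl Col1a2 was the higher chain by both lengths, while in sgMef2d which chain was higher depends on the length used. The fold between groups does not depend on it.

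The Col6a3 to Col6a1 ratio per kilobase of exon was 0.162, 0.186 and 0.201 in sgControl and 0.369 and 0.331 in sgMef2d, also a 1.91-fold difference of means. The Col6a2 to Col6a1 ratio moved less, from 0.153, 0.156 and 0.159 to 0.178 and 0.192, a 1.19-fold difference. sgControl replicate 1 was low in all 3 type VI chains but close to its group in this ratio. The Col5a3 to Col5a1 ratio was 2.37, 2.62 and 3.28 in sgControl and 5.34 and 4.99 in sgMef2d, a 1.87-fold difference. In these 4 ratios the groups did not overlap. The Col4a6 to Col4a5 ratio, 0.0346 to 0.0531 in sgControl and 0.0320 and 0.0384 in sgMef2d, overlapped between groups, and so did the P4ha1 to P4hb ratio, at means of 0.0832 and 0.0792. The ratios were described and not tested.

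**Figure D3:**
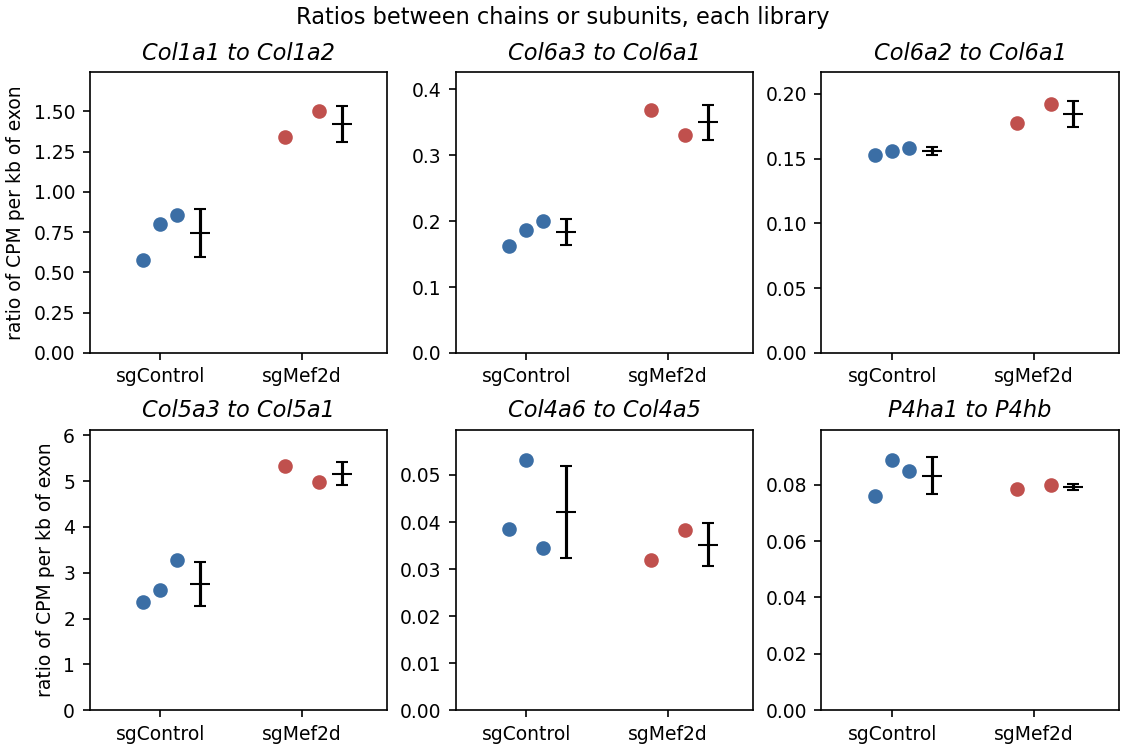
Each panel shows the ratio of 2 genes within each library, as CPM per kilobase of exon on a y axis from 0, with points for libraries and a black bar for the mean and SD of each group. The 3 sgControl and 2 sgMef2d libraries are apart for Col1a1 to Col1a2, Col6a3 to Col6a1, Col6a2 to Col6a1 and Col5a3 to Col5a1, and overlap in the other panels.

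The summed share of counts on the 39 genes overlapped between groups. It was 0.347%, 0.375% and 0.383% in sgControl and 0.366% and 0.375% in sgMef2d, a difference of means of 0.0020 percentage points against an sgControl SD of 0.0190. Without sgControl replicate 1 the difference was -0.0086 percentage points. The chains took 0.139%, 0.162% and 0.170% in sgControl and 0.149% and 0.153% in sgMef2d, with sgControl replicate 1 the lowest library. The other sgControl libraries were both above the sgMef2d libraries. The enzymes and helpers took 0.209%, 0.213% and 0.214% in sgControl and 0.218% and 0.222% in sgMef2d, with no overlap. Divided by exon length, the shares of the enzymes and helpers did overlap, at 0.219% to 0.235% in sgControl and 0.230% and 0.233% in sgMef2d. Per kilobase of exon, the highest levels in sgControl were those of Serpinh1 at 190.5 and P4hb at 168 CPM per kilobase, while by the longest coding transcript Ppib came first at 228, before Serpinh1 at 205. The highest chains were Col6a1 at 43.1, Col8a1 at 36.8, Col1a2 at 34.2 and Col1a1 at 25.6 CPM per kilobase of exon, and by the longest coding transcript Col1a2 was the highest chain at 79.4. In contrast, Col5a3 and Col3a1, the chains with the largest increases, were at 1.12 and 0.189 CPM per kilobase of exon in sgControl.

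Leaving out sgControl replicate 1 raised the number of the 38 genes past the threshold from 9 to 19, with 11 higher and 8 lower, beside 29.4% of all genes tested (3639 of 12377). All 9 genes stayed past the threshold in the same direction, with log2 fold changes of 1.43 for Col3a1, 1.38 for Col5a3, 0.68 for Loxl1, 0.46 for Loxl3, 0.31 for Pcolce, -0.56 for Col1a2, -0.51 for Col4a5 and -0.35 for Col8a1 beside the value of Col6a3 above. The 10 gained were Col1a1, Col6a2, Col9a3, Col18a1 and P4hb, which were higher, and Col4a6, Col12a1, Bmp1, Loxl4 and P3h2, which were lower. The part of that library in these results was not tested further. Leaving out sgMef2d replicate 1 or 2 left 4 of the 38 genes, Col3a1, Col5a3, Col6a3 and Col1a2, beside 1.88% (238 of 12683) and 1.83% (234 of 12801) of all genes tested in these fits. Leaving out sgControl replicate 2 left 6, beside 4.84% (603 of 12468). With 1 sgMef2d library the fit assumes that it varies like the sgControl libraries. Loxl1, Loxl3 and Col8a1 lost the call in all 3 of these fits, and Col4a5 and Pcolce in those without an sgMef2d library.

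**Figure D4:**
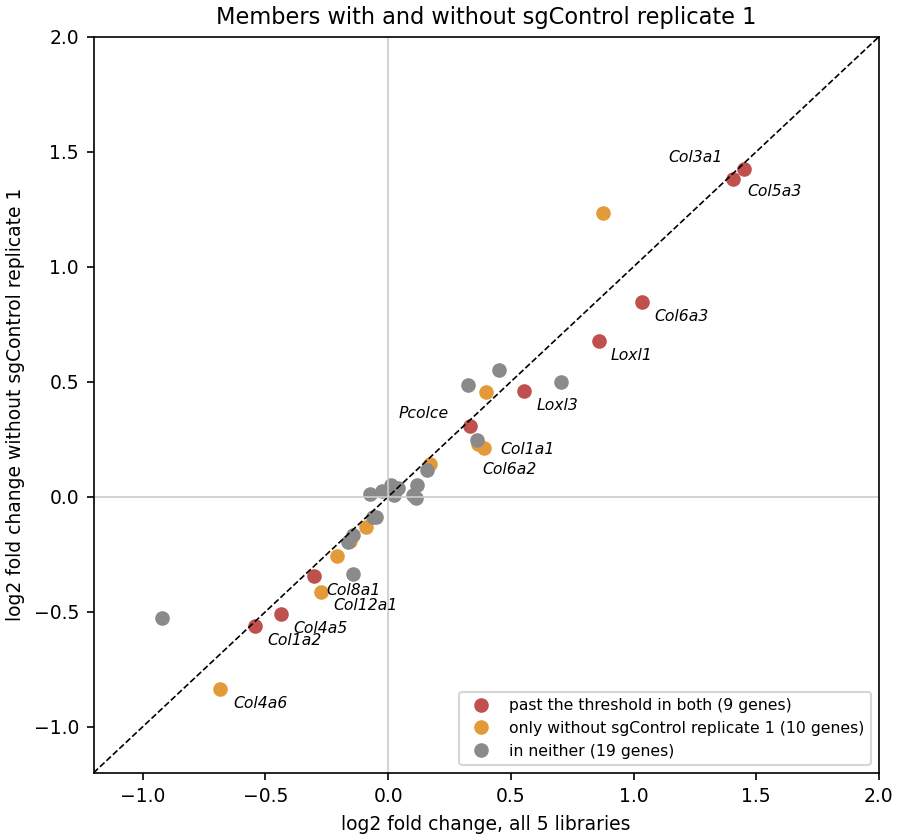
Each point is 1 of the 38 genes, with the log2 fold change from all 5 libraries on the x axis, that without sgControl replicate 1 on the y axis and a dashed line of equality. The 9 red genes passed the threshold in both fits and the 10 orange genes only without that library, and Col6a3 moved from 1.04 to 0.85 while Col12a1 moved from -0.27 to -0.41.

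Genes that work beside the collagens were read from lists of 109 genes, and 71 of these were tested, of which 10 were higher and 10 lower, beside the 3.67% higher and 4.28% lower of all genes tested. Their median log2 fold change was 0.034. Of 19 genes for procollagen folding and export, none passed the threshold, and 6 had an unadjusted p below 0.05. The smallest p was that of Sec24d, a coat protein of export vesicles, at 81.2, 85.4 and 88.2 CPM in sgControl and 74.6 and 69.4 CPM in sgMef2d (-0.24, adjusted p = 0.0557). It passed without sgControl replicate 1 (-0.27, adjusted p = 3.65e-05) and with the length and GC dependence removed (-0.23, adjusted p = 0.0182).

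Of 5 other procollagen processing enzymes, 1 was higher and 3 were lower. Adamts2, which removes the N-terminal propeptide, was at 10.1, 10.5 and 12.8 CPM in sgControl and 16.1 and 16.9 CPM in sgMef2d (0.58, adjusted p = 0.0142). Pcolce2, the relative of Pcolce, was at 17.1, 16.7 and 16.0 CPM in sgControl and at 10.5 and 11.3 CPM in sgMef2d (-0.61, adjusted p = 0.00499). The enhancer proteins thus had opposite directions. Tgm2, a transglutaminase that cross-links matrix proteins, was lower (-0.34, adjusted p = 0.00693), as was Pxdn, which is named only because it completes the count. The calls of Adamts2, Pcolce2 and Tgm2 were lost without either sgMef2d library, with adjusted p values of up to 0.176, 0.0962 and 0.161.

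Of 17 collagen-binding matrix proteins, 5 were higher and 3 lower. Postn, which encodes periostin, fell from 774, 776 and 784 CPM in sgControl to 485 and 477 CPM in sgMef2d (-0.69, SE 0.056, adjusted p = 3.01e-05). Ccn2 and Ogn were also lower (-0.42 and -1.18, adjusted p = 0.00245 and 0.00254), and both lost the call without sgMef2d replicate 2 (adjusted p = 0.0837 and 0.0569). The 5 higher genes, named after their values were seen, were Bgn, Dcn, Fmod, Prelp and Tnxb. Of these Bgn, Dcn, Fmod and Prelp encode small leucine-rich proteoglycans, as does Ogn. Without sgMef2d replicate 1 or 2, 7 or 4 genes of all these lists stayed past the threshold, and Bgn, Dcn, Fmod, Prelp, Tnxb and Pxdn were not among them. Of 11 basement membrane partners, Lamb3 was higher and Lama5 lower (0.26 and -0.30, adjusted p = 0.0333 and 0.0494). These encode a chain of laminin-332 and the α5 chain of laminin. Both calls were close to the threshold: that of Lama5 was lost in 9 of 16 alternatives, limma-voom and the legacy edgeR form among them (adjusted p of up to 0.312), and that of Lamb3 in 4 of 16 (up to 0.289).

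Of 11 collagen receptors, 2 were higher and 1 lower. Ddr2, the receptor tyrosine kinase for fibrillar collagen, was at 11.9, 11.9 and 15.2 CPM in sgControl and at 35.4 and 32.2 CPM in sgMef2d (1.39, SE 0.11, adjusted p = 3.29e-05). The proteoglycan Sdc1 was higher (0.38, adjusted p = 0.00177) and Itga2, the α2 integrin subunit that binds collagen, was lower (-0.47, adjusted p = 0.00899). Itga2 lost the call without either sgMef2d library (adjusted p of up to 0.111) and Sdc1 without sgMef2d replicate 2 (adjusted p = 0.0738). Of 8 genes for collagen degradation, the membrane-bound proteinase Mmp15 was higher, from 3 to 9 counts per library in sgControl to 47 and 34 counts in sgMef2d (2.53, adjusted p = 0.00153). Mmp9, a gelatinase, and Mmp14, a membrane-bound collagenase, were lower (-1.05 and -0.29, adjusted p = 0.00182 and 0.0157). Mmp14 lost the call without sgControl replicate 2 or either sgMef2d library (adjusted p of up to 0.223).

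Markers of the cell types that a mammary culture could hold were read beside these results. The labelled epithelial identity was borne by the luminal list, of which 11 of 12 genes were listed, with a summed level of 4319 to 4498 CPM in sgControl and 4095 to 4258 CPM in sgMef2d. Both sgMef2d sums lay below the sgControl sums, and Cldn4 was higher and Krt18 lower (0.26 and -0.26, adjusted p = 0.0407 and 0.0207). Of the basal list, 7 of 10 genes were listed and 4 were higher and 1 lower, with a summed level of 612 to 633 CPM in sgControl and 1097 to 1150 CPM in sgMef2d. Krt14 made up most of this sum and of its rise, at 439 ± 3.50 CPM (SD, n = 3) against 902 CPM, while Acta2 was the lower gene (-0.81, adjusted p = 0.00237). Krt5 had 3, 0 and 1 counts in sgControl and 260 and 211 counts in sgMef2d (adjusted p = 3.88e-08). The part of this rise in the collagen results was not tested. Of 12 fibroblast markers 5 were listed, with Thy1, Dpt, Pi16, Lum, Fap, Clec3b and Pdpn not among the listed genes, and their summed level was 104 to 130 CPM in sgControl and 113 to 115 CPM in sgMef2d. The level of this list overlapped between groups, and Pdgfrb made up most of it. Of the 4 fibroblast markers tested 1 was higher, Dcn, at 0.922 to 1.90 CPM in sgControl and 3.47 and 3.30 CPM in sgMef2d (log2 fold change 1.23, adjusted p = 0.0203). This call was lost without either sgMef2d library, and the part of Dcn in the collagen results was not tested. None of 8 endothelial markers was listed, and the 3 leukocyte markers listed summed to 3.42 to 4.19 CPM in sgControl and 4.81 and 5.10 CPM in sgMef2d, with no call. The 2 adipocyte markers listed summed to 3.90 to 6.15 CPM in sgControl and 2.70 and 2.68 CPM in sgMef2d, with Fabp4 lower (-1.25, adjusted p = 0.0231). The part of these lists was not tested.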

How the data were processed

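The authors checked reads with FASTQC and RSeQC, aligned them to GRCm38 with STAR2, and deposited raw counts per gene, whole numbers without normalization. The labels also list CASAVA and Subread. Genes with low counts had been removed, since every listed gene reached at least 11 counts in a library. No library column was left out (0 unused), and 0 entries lacked a gene name. Identifiers were matched to GENCODE M21 (12934 of 12934 genes, 12811 with the same version), although the methods give GENCODE version 22. Libraries were grouped by their treatment label.

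The deposited counts were analysed in R 4.3.3 with edgeR 4.0.16. TMM factors lay between 0.996 and 1.003, the default expression filter by group removed 451 genes, and the quasi-likelihood test (bias-adjusted form) was fitted over all 12483 genes and all 5 libraries. The threshold was a Benjamini-Hochberg adjusted p below 0.05. CPM values are counts scaled to 1000000 normalized counts, and the biological coefficient of variation was 0.0607. Log2 fold changes are those of the quasi-likelihood fit with its default prior count. A prior count of 2 entered only the log2 CPM values behind the replicate correlations and the length and GC trends. Levels between genes were divided by exon length, and ratios also by the longest coding transcript, which was chosen after seeing the data. Promoter windows and symbols came from RefSeq (GRCm38.p6). No protein sequence was used here. Alternatives were other normalizations and filters, DESeq2 1.42.0, limma-voom 3.58.1, the legacy edgeR form, a threshold of 0.01, a replicate block, trends with length and GC content removed per library (loess, span 0.3), and leaving out each library. On simulated counts for this comparison over 12483 genes, 61 of 100 genes changed by 0.5 and 91 of 100 changed by 1 on the log2 scale were recovered, with 8 calls among 12283 unchanged genes. No simulated library stood apart from its group as sgControl replicate 1 did, so these figures do not cover its effect.

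The genes and lists were chosen with earlier results of these data known. Genes were named if past the threshold, if highest per kilobase or with the smallest p in their group, if they share a heterotrimer or a start region with another, or, outside the collagens, if among the 3 smallest p of a list's genes past the threshold, or the smallest p where none passed. Other genes given by name complete a group.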

Additional observations from a re-analysis of the deposited data

How the results depend on the processing

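The 9 calls among the 38 genes were made under every normalization, filter and test tried, except that DESeq2 gave 8, without Loxl1. At an adjusted p below 0.01, 6 of the 38 genes, 422 of all genes (992 at 0.05) and 10 of the other collagen pathway genes (20 at 0.05) remained past the threshold. Removing the length and GC trend gave 13 of the 38 genes, with Col1a1, Col6a2, Col4a6 and Bmp1 gained, and 1423 of all genes. Replicate numbers are shared between groups, and the deviations of same-numbered libraries correlated at 0.0113 and -0.000916. The deviations of 2 sgMef2d libraries mirror each other, so these values cannot exclude that same-numbered libraries were prepared together. With the number as a replicate block, the counts were 13 of 38, with Col1a1 (0.55, adjusted p = 5.69e-09 from edgeR), Col6a2 (0.46, 1.60e-05), Col4a6 and Col27a1 gained, 1254 of all genes and 23 of the other pathway genes. In this design sgControl replicate 3 has no sgMef2d partner, so the estimates rest on the same-numbered libraries, sgControl replicate 1 among them. Leaving out 1 library at a time gave 4 to 19 of the 38 genes, 234 to 3639 of all genes and 4 to 45 of the other pathway genes. The extremes were without an sgMef2d library and without sgControl replicate 1. The difference in the share of counts ranged from -0.0086 to 0.0095 percentage points.

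No called gene turned its direction. Among estimates that did not pass the threshold, leaving out 1 library turned the sign of 6. They ranged from -0.48 to 0.20 for Col4a3, from -0.0038 to 0.20 for Col6a1, from -0.34 to 0.074 for Col16a1, from -0.061 to 0.024 for Ppib, from -0.090 to 0.0047 for P4ha2 and from -0.019 to 0.053 for Serpinh1. With the replicate block P4ha2 was at 0.0041 and Serpinh1 at -0.0047, and with the trend removed Serpinh1 was at -0.054 and Crtap at -0.056. The cause was not tested. Depth limits Col4a3, Col4a4, Col5a2, Col9a3 and Col20a1, which had few counts per library. Over the single-gene estimates for which alternatives were run, 781 of 864 kept direction and side of the threshold, 46 lost the call, 23 gained it and 14 reversed.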
